A study of Rattus norvegicus with 48 samples.

Results

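Acod1 and 8 genes of the tricarboxylic acid (TCA) cycle and of itaconate handling were followed by RNA-seq in primary cultures of rat cortex. The genes were chosen by symbol, for their place in or beside the making and breaking down of itaconate, with earlier results of these data known. The study had already reported Acod1 as higher with Tat and lower with 4OI added. The Acod1 tests of these effects thus restate a known result and are not independent support for it. Of the 9 listed genes, 8 (Acod1, Clybl, Slc25a1, Cs, Aco1, Idh3a, Suclg1 and Suclg2) were measured here among the 30211 genes of the table, and Ogdh was not analysed here. The 48 libraries came from 16 groups of 3. Cultures were prepared from cortex of 18-day-old Sprague-Dawley fetuses and treated after 3 weeks in vitro. Control cultures received no agent. Tat, the transactivator protein of HIV-1, was given at 6 ng/mL over 48 h and cocaine at 25 µM over 24 h, singly or together (Tat-Cocaine). The 4 small molecules were Senicapoc at 1 µM, Tazemetostat at 3 µM, Amlexanox at 25 µM and 4-octyl itaconate (4OI) at 250 µM. Each of them was added to untreated, to Tat and to Tat-Cocaine cultures for 48 h. The study's captions describe cocaine as added for 24 h after the 48 h of Tat. Cultures with Tat and cocaine may thus have been exposed for longer than those with Tat alone. Between such cultures cocaine and time of exposure cannot be told apart. Tat was a protein added to the medium, so that no cell of the culture made it, and no virus was added. The study prepared 4OI as a stock in DMSO and does not state whether Control cultures received DMSO. The part of this solvent in differences of 4OI from Control was not tested.

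Itaconate is made in mitochondria of activated macrophages and microglia by the enzyme that Acod1 encodes, which takes cis-aconitate out of the TCA cycle. Clybl encodes citramalyl-CoA lyase, the enzyme of the last step by which itaconate is broken down to acetyl-CoA and pyruvate. Before that step itaconate is joined to coenzyme A, a reaction that succinate-CoA ligase (Suclg1 with Suclg2 or Sucla2) can carry out. Itaconate slows succinate dehydrogenase, and 4OI is an ester of itaconate that enters cells. The remaining genes supply or use the same carbon: citrate synthase (Cs) makes citrate, Slc25a1 exports it from mitochondria, Aco1 is the cytosolic aconitase and iron regulatory protein, and Idh3a is the catalytic subunit of the NAD-dependent isocitrate dehydrogenase.

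Values are CPM, read counts of a gene set against the total of its library after the authors' scaling of libraries (TMM). Depth was 17.5 to 29.1 M reads per library (median 22.4 M), and 1 read was worth 0.0334 to 0.0583 CPM. All 8 genes passed the filter for testing (at least 0.5 CPM in at least 3 libraries). Acod1 reached 0.5 CPM in 32 of the 48 libraries and the other 7 genes in all 48. The labels give neurons as the cell type and mixed cultures as the way of growing them, and the marker genes show a mixture. The summed level of 10 neuronal markers was 1088 to 4702 CPM, that of 8 astrocyte markers 5787 to 14256 CPM, and that of 15 microglia and macrophage markers 816 to 7694 CPM. None of these markers was at 0 in any library. Library 3 of the Cocaine group stood apart, with 23483 CPM of oligodendrocyte markers against 354 to 2366 CPM in the other 47 libraries. The labels do not say whether the 3 libraries of a group came from separate cell preparations, so that the spread between libraries may be technical. The p-values and intervals rest on a spread per gene that was pooled over all groups, not on that of the compared groups. On the log2 scale Acod1 spread more than this in Tat and Tat-Cocaine and less in the groups without Tat. Its intervals are thus too narrow for the first and too wide for the second.

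The DNA just upstream of the transcription starts of 4 of the genes is given here, because Acod1 was higher with Tat, Slc25a1 and Suclg1 were higher with 4OI, and Clybl encodes the enzyme that ends the itaconate pathway. The sequences are the 250 bases before the RefSeq start on build GRCr8, written 5′ to 3′ on the gene's own strand. They lie at chr15:86286289-86286538 for Acod1, chr15:105690058-105690307 for Clybl, chr11:96559804-96560053 for Slc25a1 and chr4:106866079-106866328 for Suclg1, all on the plus strand. Capitals mark matches to 5 short motifs, searched on both strands. The motifs were GGANNTTCC for NF-κB, GAAA followed after 2 bases by another GAAA for interferon-stimulated response elements, TATAAA for the TATA box, TGACNNNGC for antioxidant response elements and TCACNCCAC for sterol regulatory elements, where N is any base. They were chosen with the sequences in view.
Acod1: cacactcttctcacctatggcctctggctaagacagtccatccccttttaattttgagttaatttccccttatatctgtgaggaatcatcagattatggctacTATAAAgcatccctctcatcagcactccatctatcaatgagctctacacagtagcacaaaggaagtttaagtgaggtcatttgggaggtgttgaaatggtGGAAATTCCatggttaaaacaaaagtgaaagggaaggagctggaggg
Clybl: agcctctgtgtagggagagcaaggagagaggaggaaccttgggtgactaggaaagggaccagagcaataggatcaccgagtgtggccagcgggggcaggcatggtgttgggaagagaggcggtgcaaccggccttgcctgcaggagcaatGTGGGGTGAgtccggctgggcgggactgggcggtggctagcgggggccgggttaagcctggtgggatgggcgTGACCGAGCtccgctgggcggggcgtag
Slc25a1: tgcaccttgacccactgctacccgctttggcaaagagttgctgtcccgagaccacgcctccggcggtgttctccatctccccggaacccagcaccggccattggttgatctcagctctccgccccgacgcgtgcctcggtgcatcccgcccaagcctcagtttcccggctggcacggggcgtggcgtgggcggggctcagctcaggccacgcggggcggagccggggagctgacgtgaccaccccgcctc
Suclg1: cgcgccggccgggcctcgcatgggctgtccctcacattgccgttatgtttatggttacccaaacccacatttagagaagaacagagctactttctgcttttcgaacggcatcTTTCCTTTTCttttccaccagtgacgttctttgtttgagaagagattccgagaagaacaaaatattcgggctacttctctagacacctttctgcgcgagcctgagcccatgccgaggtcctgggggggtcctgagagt

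The Acod1 window held 1 NF-κB match, GGAAATTCC, at 47 to 39 bases before the start, which matches on both strands, and 1 TATAAA at 147 to 142 bases. Of the 33469 windows of the same length in the table, 3.36% held the NF-κB letters and 12.9% the TATA box. The Clybl window held 1 antioxidant response match (28 to 20 bases before the start, found in 10.1% of windows) and 1 sterol regulatory match (100 to 92 bases, 0.974% of windows). The Suclg1 window held 1 interferon-stimulated response match (138 to 129 bases, 3.41% of windows), and Slc25a1 held none of the 5. The Acod1 window contained 0 CG dinucleotides, as did 7.83% of all windows, and its GC content was 42.4%. The Clybl, Slc25a1 and Suclg1 windows contained 14, 24 and 14 CG dinucleotides. A match describes letters and shows neither binding nor use of the site. RefSeq entries matched for 8 of the 9 listed genes, and none was found for Idh3a.

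Each gene was compared between groups on log2(CPM + 0.5) with limma, fitted to all 15890 genes that passed the filter, and was called at a Benjamini-Hochberg adjusted p under 0.05 within a comparison. Over 30 comparisons 32 of the 240 tests of the 8 genes were called. With Tat, 2 of 8 genes were called (Acod1 higher, Suclg2 lower), in a comparison that called 21.3% of all genes. With Tat-Cocaine against Control 4 of 8 were called (Acod1 higher, Suclg2, Clybl and Idh3a lower; 14.9% of all genes). Cocaine alone called 0 of 8 (0.201% of all genes), with 2 of 8 at an unadjusted p under 0.05, and Tat-Cocaine against Tat called 0 of 8 (0.0189% of all genes), with 1 at an unadjusted p under 0.05. Without Cocaine library 1, Idh3a was called lower with cocaine (log2 difference -0.39, limma adjusted p = 0.0177), and without Cocaine library 3, which stood apart, 0 of 8 were called.

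4OI alone called 2 of 8 genes, both higher (Suclg1 and Slc25a1; 3.15% of all genes). In Tat cultures 4OI called 2 of 8 (Suclg1 higher, Acod1 lower; 15.6% of all genes), and in Tat-Cocaine cultures 3 of 8, all higher (Suclg1, Slc25a1 and Clybl; 7.36% of all genes). Amlexanox alone called 2 of 8 (Suclg1 higher, Suclg2 lower; 11.4% of all genes), and 0 of 8 when added to Tat or to Tat-Cocaine (0.837% and 0.925% of all genes, 2 of 8 at an unadjusted p under 0.05 in each). Tazemetostat called 0 of 8 alone and with Tat (0% of all genes in both, and 0 of 8 at an unadjusted p under 0.05). In Tat-Cocaine cultures it called 2 of 8, both higher (Acod1 and Aco1; 28.7% of all genes). Senicapoc called 0 of 8 alone, with Tat and with Tat-Cocaine (0%, 0.409% and 0.0441% of all genes), with 0, 2 and 2 at an unadjusted p under 0.05. Comparisons that share a control group are not independent of one another, so that their values stand side by side only.

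**Figure D1:**
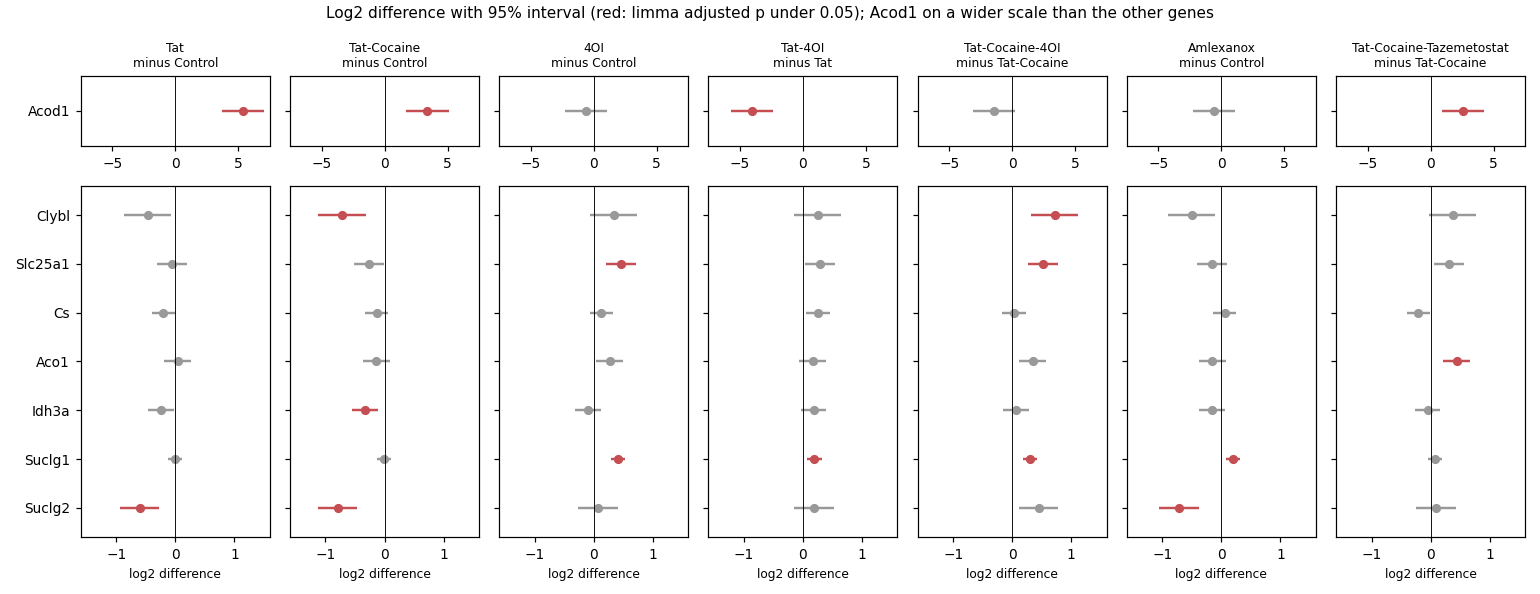
Log2 difference on log2(CPM + 0.5) of 8 genes (rows) in 7 comparisons (columns), with 95% intervals from limma, n = 3 libraries per group. Red marks adjusted p under 0.05. Acod1 (upper row) is drawn on a wider scale than the other genes, and shows a difference of 5.35 with Tat and of -4.06 with 4OI added to Tat.

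Acod1 was low in every group without Tat and higher in Tat and Tat-Cocaine than in Control. In the 3 Control libraries Acod1 stood at 0.115, 0.539 and 0.454 CPM, about 3, 11 and 10 reads. In the Tat libraries it stood at 47.5, 92.2 and 8.75 CPM, or about 937, 2005 and 185 reads. The lowest Tat library was thus above the highest Control library, and the Tat libraries themselves spread widely (mean 49.5 ± 41.8 CPM, SD, n = 3). In the Tat-Cocaine libraries Acod1 stood at 1.66, 10.8 and 29 CPM (13.8 ± 13.9, SD, n = 3), again above all Control libraries, with Tat-Cocaine library 1 closest to them. Cocaine alone gave 0.425, 0.766 and 0.121 CPM, which overlapped Control.

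The fitted Acod1 difference of Tat from Control was 5.35 on the log2(CPM + 0.5) scale (SE 0.82, 95% interval 3.67 to 7.02, limma adjusted p = 1.15e-05), a 40.7-fold difference on that scale, which understates the change of a gene this low in Control. For Tat-Cocaine it was 3.40 (95% interval 1.73 to 5.08, limma adjusted p = 0.00404). That call was lost without Tat-Cocaine library 3 (adjusted p = 0.0590) and when only the 2 compared groups were fitted (adjusted p = 0.0835). The difference of Tat-Cocaine from Tat was -1.95 (95% interval -3.62 to -0.27, limma adjusted p = 0.588), and the 2 groups overlapped. Cocaine alone differed from Control by 0.08 (95% interval -1.59 to 1.76, limma adjusted p = 0.984).

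With the small molecules alone Acod1 was at the limit of detection. The 4OI libraries held 3, 2 and 0 reads of Acod1, and the Amlexanox libraries 3, 1 and 1. A count of 0 allows up to 3 reads, which corresponds to 0.10 to 0.175 CPM at these depths. Tazemetostat gave 0.0448, 0.189 and 0.273 CPM and Senicapoc 0.0669, 0.155 and 0.206 CPM, with the highest library of each below the 2 higher Control libraries. Limma called no lower level than that of Control, with adjusted p = 0.888 for 4OI and 0.693 for Amlexanox. No alternative fit called either difference (lowest limma adjusted p 0.58 and 0.353). These p-values carry both the low counts and a spread pooled with the groups given Tat, so that depth alone cannot be named as the limit.

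Over the 16 groups the mean Acod1 level ran from 0.0656 CPM (4OI) to 61.7 CPM (Tat-Cocaine-Tazemetostat). In falling order of the mean, the groups with Tat were Tat-Cocaine-Tazemetostat (39.8, 113 and 32.3 CPM), Tat, Tat-Tazemetostat (14.6, 98.1 and 9.69), Tat-Cocaine-Senicapoc (10.2, 38.8 and 11.6), Tat-Cocaine, Tat-Senicapoc (4.37, 22 and 14.4), Tat-Amlexanox (8.46, 22 and 4.54), Tat-Cocaine-Amlexanox (5.88, 21.9 and 5.74), Tat-Cocaine-4OI (1.26, 6.59 and 2.43) and Tat-4OI (0.535, 3.39 and 1.70). All 15 pairs of neighbouring groups in the order of 16 overlapped in their libraries. The 30 libraries with Tat lay between 0.535 and 113 CPM and the 18 without Tat between 0 and 0.766 CPM. The lowest with Tat, Tat-4OI library 1, was below Control library 2 (0.539 CPM) and Cocaine library 2 (0.766 CPM). Library 2 was the highest of its group in 9 of the 10 groups with Tat.

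**Figure D2:**
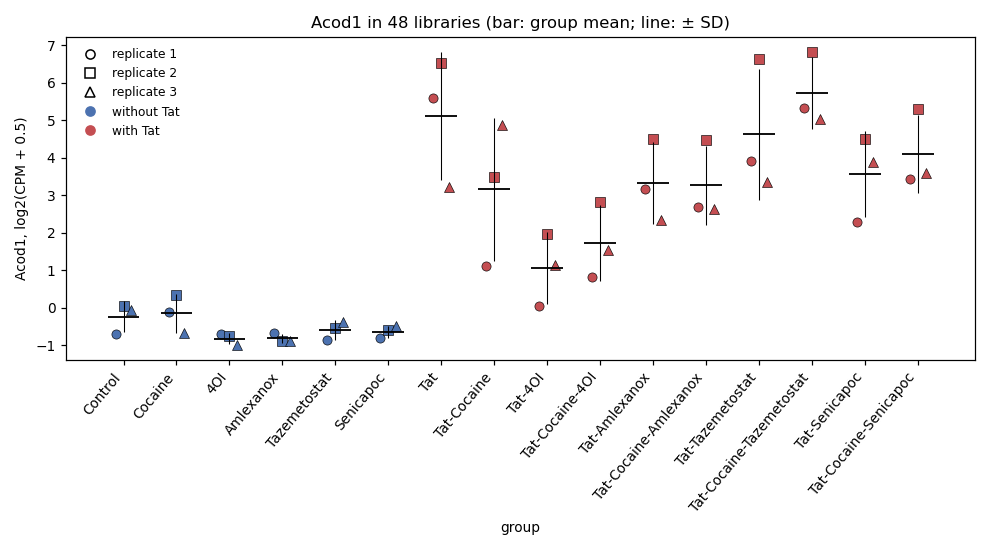
Acod1 in 48 libraries as log2(CPM + 0.5) (y axis) by group (x axis), where circles, squares and triangles are libraries 1, 2 and 3. Blue are groups without Tat, red are groups with Tat, horizontal bars are group means and vertical lines ± SD. Groups with 4OI and Tat are the lowest of those with Tat, and library 2 is the highest in 9 of 10 groups with Tat.

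4OI lowered Acod1 in cultures given Tat. The Tat-4OI libraries stood at 0.535, 3.39 and 1.70 CPM (1.88 ± 1.43, SD, n = 3), all below the lowest Tat library of 8.75 CPM. The log2 difference was -4.06 (SE 0.82, 95% interval -5.74 to -2.39, limma adjusted p = 0.000823), and it stayed called when any 1 library was left out. In Tat-Cocaine cultures the 4OI libraries (1.26, 6.59 and 2.43 CPM) overlapped those without 4OI (1.66, 10.8 and 29 CPM), and the difference of -1.43 was not called (95% interval -3.11 to 0.24, limma adjusted p = 0.327). Whether the effect of 4OI in Tat cultures differed from that in untreated cultures was tested as an interaction, which gave -3.47 (limma adjusted p = 0.193). In the 4 interactions, 1 per small molecule, 0 of 8 genes were called with limma (0.497%, 1.84%, 0% and 0% of all genes for 4OI, Amlexanox, Tazemetostat and Senicapoc), with 2, 1, 0 and 0 at an unadjusted p under 0.05.

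The other small molecules did not lower Acod1 below the threshold of the test. Against Tat, the difference was -1.78 for Tat-Amlexanox (limma adjusted p = 0.355), -0.48 for Tat-Tazemetostat and -1.55 for Tat-Senicapoc (adjusted p = 0.308). In Tat-Cocaine cultures Tazemetostat raised Acod1, from 1.66, 10.8 and 29 to 39.8, 113 and 32.3 CPM, with a log2 difference of 2.57 (SE 0.82, 95% interval 0.89 to 4.24, limma adjusted p = 0.0229). The groups did not overlap, but the call was lost without Tat-Cocaine library 1 (log2 difference 1.54, adjusted p = 0.216), without Tat-Cocaine library 2 (adjusted p = 0.0616), without Tat-Cocaine-Tazemetostat library 2 (adjusted p = 0.138) and when only the 2 groups were fitted (adjusted p = 0.0812). Amlexanox and Senicapoc in Tat-Cocaine cultures gave 0.10 and 0.94, neither called.

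Set against the other small molecules at the same Tat exposure, Acod1 was lower with 4OI than with Tazemetostat both with Tat (log2 difference -3.58, limma adjusted p = 0.00372) and with Tat-Cocaine (-4.0, adjusted p = 0.00058). The first of these calls was lost without Tat-Tazemetostat library 2 (-2.59, adjusted p = 0.0842) and when only the 2 groups were fitted (adjusted p = 0.0991). Against Amlexanox the differences were -2.28 with Tat (95% interval -3.96 to -0.61, adjusted p = 0.0586) and -1.53 with Tat-Cocaine (adjusted p = 0.27). Against Senicapoc they were -2.51 (adjusted p = 0.0515) and -2.37 (adjusted p = 0.0525). In the last comparison same-numbered libraries deviated together, and with libraries blocked by replicate number the difference was called (limma adjusted p = 0.00979). In the same comparisons some microglia and macrophage markers were called lower with 4OI and none higher. Against Tazemetostat 9 of 15 were lower with Tat and 15 of 15 with Tat-Cocaine (median log2 differences -1.30 and -1.97). These 2 comparisons called 16.1% and 24.4% of all genes. Against Amlexanox 2 and 4 of 15 markers were lower (13.7% and 8.86% of all genes), the first near the share of all genes. Against Senicapoc 3 and 11 of 15 markers were lower (8.43% and 12.5% of all genes). Their part in the Acod1 differences was not tested. The 4 small molecules are not related in structure and were given at different doses.

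Tat also raised Acod1 in the presence of 3 of the small molecules. The log2 difference of Tat with a molecule from the molecule alone was 5.23 for Tazemetostat (limma adjusted p = 3.2e-05), 4.20 for Senicapoc (adjusted p = 0.000558) and 4.15 for Amlexanox (adjusted p = 0.000434). For 4OI it was 1.88 (95% interval 0.20 to 3.55, adjusted p = 0.195), from 3, 2 and 0 reads to 10, 63 and 35 reads. These groups did not overlap, and with a pseudocount of 0.1 the difference was 3.33 and called (adjusted p = 0.0263). Of the 8 genes, 1 was called with Tat-4OI against 4OI (5.18% of all genes), 1 with Tat-Amlexanox against Amlexanox (39.6%), 2 with Tat-Tazemetostat against Tazemetostat (16.1%) and 1 with Tat-Senicapoc against Senicapoc (16%). In the Amlexanox comparison same-numbered libraries deviated together, and with libraries blocked by replicate number Cs was called lower as well (log2 difference -0.22, limma adjusted p = 0.0373).

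Markers of microglia and macrophages, the cells in which Acod1 is known to be used, moved in part with Acod1. Their summed level was 2120, 3909 and 2241 CPM in Control and 2753, 4916 and 3489 CPM in Tat, with overlap. With Tat 3 of 15 markers were higher and 1 lower, in a comparison that called 21.3% of all genes. Per 1000 CPM of these markers, Acod1 was 0.0543, 0.138 and 0.203 CPM in Control and 17.3, 18.8 and 2.51 CPM in Tat, so that the groups stayed apart. In Tat-4OI the marker sum was 1732, 2632 and 1182 CPM, with 4 of 15 markers lower than in Tat and 0 higher (15.6% of all genes called). Acod1 per 1000 CPM of markers was 0.309, 1.29 and 1.44 there, still below each Tat library. In bulk libraries fewer microglia and less RNA per microglial cell cannot be told apart.

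In Tat-Cocaine-Tazemetostat the marker sum was 5600, 7652 and 4986 CPM, against 3610, 2166 and 3213 CPM in Tat-Cocaine, and 8 of 15 markers were higher (28.7% of all genes called). Acod1 per 1000 CPM of markers was 7.11, 14.8 and 6.47 there and 0.46, 4.99 and 9.02 in Tat-Cocaine, and these overlapped. Of the 10 neuronal markers 7 were lower in the same comparison and 0 higher. In Tat-Cocaine-4OI the sum was 816, 2461 and 982 CPM, with 5 of 15 markers lower (7.36% of all genes called). Acod1 per 1000 CPM of markers was 1.55, 2.68 and 2.47 there, which overlapped Tat-Cocaine, whose library 1 lay below all of them. The part of these marker levels in the Acod1 differences was not tested beyond the ratios given. Of 8 markers of neutrophils, T cells and B cells, 7 did not pass the filter and were at 0 in 20 to 47 libraries, and S100a8, which encodes a calcium-binding protein of myeloid cells, was higher with Tat (6.89 against 0.248 CPM, log2 difference 3.30).

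**Figure D3:**
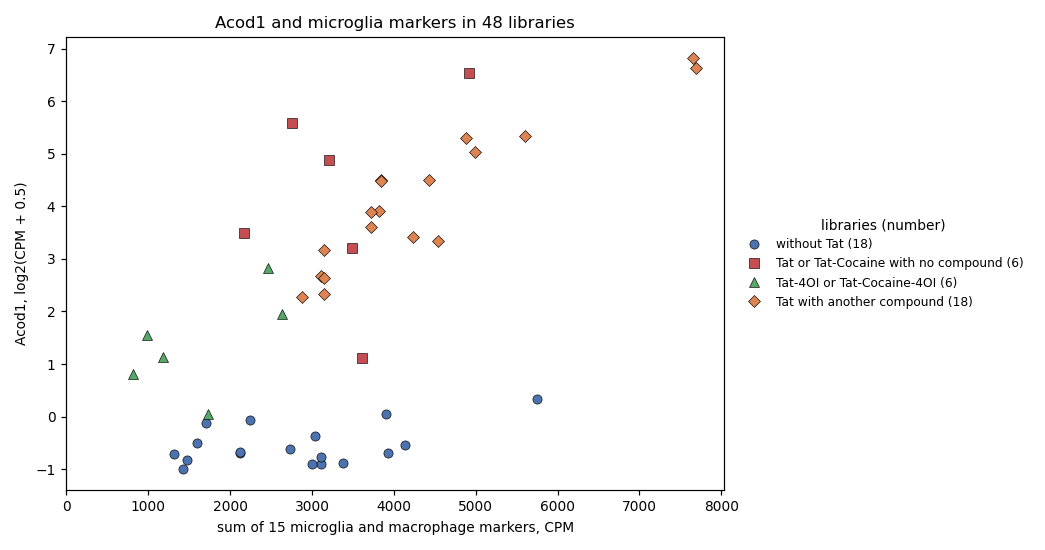
Acod1 as log2(CPM + 0.5) (y axis) against the summed CPM of 15 microglia and macrophage markers (x axis), 1 point per library, with red squares for Tat and Tat-Cocaine and orange diamonds for Tat with another small molecule. The 18 libraries without Tat (blue circles) stay at or below 0.766 CPM of Acod1 over marker sums from 1313 to 5747 CPM, and the 6 libraries with Tat and 4OI (green triangles) have sums of 816 to 2632 CPM.

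The 8 genes whose log2 values were most like those of Acod1 over the 48 libraries were Slc11a2 (Pearson r = 0.981), Vasp (0.980), N4bp1 (0.977), Ciita (0.972), Wnt6 (0.970), Irak3 (0.970), Tnip1 (0.970) and Pla2g2a (0.966). The points share the Tat treatment, and within groups, after each group's mean was taken off, r was 0.856 to 0.927 for these 8. Slc11a2 encodes an iron transporter, Tnip1 and N4bp1 restrain NF-κB signalling, Irak3 restrains Toll-like receptor signalling and Ciita drives MHC class II genes. Among the other genes described here, r with Acod1 over 48 libraries was -0.69 for Cs, -0.56 for Idh3a, -0.53 for Suclg2, -0.40 for Clybl, -0.33 for Suclg1, -0.24 for Slc25a1 and 0.37 for Aco1. Within groups it was -0.53 for Cs, -0.60 for Idh3a and 0.66 for Aco1, with the same sign as over all libraries, and 0.24 for Suclg2, 0.36 for Clybl, -0.13 for Suclg1 and 0.36 for Slc25a1.

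Clybl was a gene of low level (3.93 to 12.8 CPM) that was called lower with Tat-Cocaine. With 4OI it was called higher in Tat-Cocaine cultures only. In Control it was 6.98, 7.84 and 11.5 CPM and in Tat-Cocaine 4.6, 5.12 and 5.35 CPM. All Tat-Cocaine libraries lay below all Control libraries, and the log2 difference was -0.72 (SE 0.20, limma adjusted p = 0.0109). The call rested on Control library 3, the highest, without which it was -0.52 (adjusted p = 0.108), and it was also lost when only the 2 groups were fitted (adjusted p = 0.106). In Tat the values were 6.03, 6.67 and 5.58 CPM, also below all Control libraries, and the difference of -0.47 was not called (limma adjusted p = 0.0876).

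In Tat-Cocaine-4OI Clybl stood at 8.89, 8.40 and 8.43 CPM, above every Tat-Cocaine library and within the range of Control. The log2 difference from Tat-Cocaine was 0.72 (SE 0.20, limma adjusted p = 0.0209), and it lost its call without Tat-Cocaine library 1 or 2, without Tat-Cocaine-4OI library 1 or 3, or when only the 2 groups were fitted (adjusted p 0.055 to 0.0876). Clybl was also higher with 4OI than with Amlexanox in Tat-Cocaine cultures (0.63, limma adjusted p = 0.0373), a call lost whichever of the 6 libraries was left out (adjusted p 0.0566 to 0.126) and with no filter on low values (adjusted p = 0.0574). With 4OI alone Clybl was 10.5, 12.8 and 9.88 CPM, the highest group mean of the 16, overlapped Control and was not called (0.34, adjusted p = 0.516). In Tat-4OI it stood at 7.28, 6.51 and 8.27 CPM, overlapped Tat and was not called against it. Astrocyte markers moved in the same comparisons as Clybl. In Tat-Cocaine 3 of 8 were lower than in Control (median -0.37, 14.9% of all genes called). When 4OI was added to Tat-Cocaine 3 of 8 were higher (median 0.41, 7.36% of all genes called). The part of these markers in the Clybl differences was not tested. Clybl and Suclg2 had r = 0.717 over 48 libraries and 0.611 within groups. The lowest library of all 48 for Clybl was Amlexanox library 3 (3.93 CPM), which also had the lowest sum of astrocyte markers (5787 CPM). Over 48 libraries Clybl was most like Slc38a3 (r = 0.809), Pygb (0.806) and Kcnj16 (0.805), a glutamine carrier, the brain glycogen phosphorylase and a potassium channel.

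Slc25a1, the mitochondrial citrate carrier, was higher with 4OI in otherwise untreated and in Tat-Cocaine cultures. In Control it stood at 86.8, 101 and 67.1 CPM and in 4OI at 127, 108 and 113 CPM, so that every 4OI library was above every Control library. The log2 difference was 0.46 (SE 0.12, 95% interval 0.21 to 0.71, limma adjusted p = 0.0292), a 1.38-fold difference. This call was lost without Control library 1 or 3, without 4OI library 1 or 3, after quantile normalization, in a fit to the 21 libraries that received none of the other 3 small molecules and in the fit to the 2 groups alone (adjusted p 0.0537 to 0.323), and without Control library 3 the difference fell to 0.30. In Tat-Cocaine cultures Slc25a1 rose from 64.6, 62.7 and 82.9 to 102, 96.3 and 102 CPM with 4OI, without overlap (0.52, limma adjusted p = 0.00688). That call was lost without Tat-Cocaine library 2 (0.45, adjusted p = 0.0568) and in the fit to the 2 groups alone (adjusted p = 0.142).

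In Tat cultures Slc25a1 stood at 81.6, 84.9 and 74.8 CPM, and with 4OI added at 91.4, 98.6 and 106 CPM, also without overlap. The difference of 0.29 was not called (95% interval 0.04 to 0.54, limma adjusted p = 0.101). Against Amlexanox, Slc25a1 was higher with 4OI both with Tat (0.49, limma adjusted p = 0.00759) and with Tat-Cocaine (0.42, adjusted p = 0.03). Against Senicapoc the differences were 0.41 with Tat (adjusted p = 0.034) and 0.40 with Tat-Cocaine (adjusted p = 0.027). The first of these 4 calls held in all 15 alternative fits, and the others were each lost in 4 or 5 of 15. These comparisons called 1 and 2 of the 8 genes against Amlexanox (13.7% and 8.86% of all genes, for Tat and Tat-Cocaine cultures in turn), 3 and 2 of 8 against Tazemetostat (16.1% and 24.4%), and 1 and 1 of 8 against Senicapoc (8.43% and 12.5%). The genes most like Slc25a1 over the libraries were Erg28 (r = 0.821) and Tm7sf2 (0.805), both of sterol synthesis, and St13 (0.793).

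Cs and Aco1 varied little. Cs lay between 144 and 225 CPM in all libraries and Aco1 between 68.4 and 107 CPM, a 1.56-fold and a 1.57-fold range. Cs was 182, 166 and 172 CPM in Tat and 220, 192 and 210 CPM in Tat-4OI, without overlap, and the difference of 0.25 was not called (95% interval 0.06 to 0.45, limma adjusted p = 0.068). It was called higher with 4OI than with Tazemetostat in Tat cultures (0.31, limma adjusted p = 0.0243). That call was lost without Tat-Tazemetostat library 1 or 2, without Tat-4OI library 1 or 3 and in the fit to the 2 groups alone, and the difference was 0.25 without Tat-Tazemetostat library 2. In Tat-Cocaine cultures the same difference was 0.24, and it was called only with libraries blocked by replicate number (limma adjusted p = 0.0348 against 0.0686), in a comparison whose same-numbered libraries deviated together. Cs was most like Cry2 (r = 0.926 over 48 libraries), Gnao1 (0.922), a G protein subunit abundant in neurons, and Kcnab2 (0.919), a potassium channel subunit.

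Aco1 was called once. It stood at 70.4, 68.4 and 89.8 CPM in Tat-Cocaine and at 98.3, 107 and 104 CPM in Tat-Cocaine-Tazemetostat, so that the groups did not overlap (0.44, SE 0.11, limma adjusted p = 0.0091). The call was lost without Tat-Cocaine library 1 or 2 or Tat-Cocaine-Tazemetostat library 2 (adjusted p 0.0599 to 0.0664). In the same comparison, which called 28.7% of all genes, 8 of 15 microglia markers were higher and 7 of 10 neuronal markers lower. The part of these markers was not tested. With 4OI in Tat-Cocaine cultures Aco1 was 90.2, 105 and 94.8 CPM, again above every Tat-Cocaine library, and the difference of 0.35 was not called (95% interval 0.12 to 0.58, limma adjusted p = 0.0533). Aco1 was most like AC098750.3 (r = 0.895 over 48 libraries), Adam15 (0.889) and Cpped1 (0.883).

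Idh3a stood at 176, 155 and 142 CPM in Control and at 134, 122 and 119 CPM in Tat-Cocaine. The groups did not overlap, and the log2 difference was -0.33 (SE 0.11, limma adjusted p = 0.0337). The call was lost without Control library 1 (-0.25, adjusted p = 0.186), without Control library 2, without Tat-Cocaine library 2 or 3, in the fit to 21 libraries (adjusted p = 0.134) and in the fit to the 2 groups alone (adjusted p = 0.139). In the fit to all libraries no other comparison called Idh3a. In Tat it was 136, 118 and 146 CPM and overlapped Control (-0.24, limma adjusted p = 0.106). Idh3a was most like Atp2a2 (r = 0.900 over 48 libraries), a calcium pump, Hs6st3 (0.884) and RGD1304884 (0.882). With Cs it had r = 0.819 over 48 libraries and 0.794 within groups. The summed neuronal markers were 4305, 3222 and 2780 CPM in Control and 2973, 2845 and 2319 CPM in Tat-Cocaine, with overlap. Their part in the Idh3a difference was not tested.

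The genes of the 2 succinate-CoA ligase subunits moved in different comparisons. Suclg1 encodes the alpha subunit, shared by both forms of the enzyme. It was 136, 120 and 123 CPM in Control and 180, 152 and 172 CPM in 4OI, with no overlap. The log2 difference was 0.41 (SE 0.06, 95% interval 0.29 to 0.53, limma adjusted p = 1.24e-05), a 1.33-fold difference, and it was lost only in the fit to the 2 groups alone (adjusted p = 0.159) of 16 alternatives. With Tat-Cocaine Suclg1 rose from 120, 125 and 129 to 152, 147 and 161 CPM when 4OI was added (0.30, limma adjusted p = 0.00107, lost only in the fit to the 2 groups alone, adjusted p = 0.16).

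In Tat cultures Suclg1 rose from 129, 123 and 124 to 155, 136 and 141 CPM with 4OI (0.19, 95% interval 0.07 to 0.31, limma adjusted p = 0.0218). The call was lost without Tat library 2 or Tat-4OI library 1, in the fit to 21 libraries and in the fit to the 2 groups alone (adjusted p 0.101 to 0.18). The interaction of 4OI with Tat was -0.21 for Suclg1 (limma adjusted p = 0.298), so that a different size of the 4OI effect in Tat cultures was not shown. Between the cultures with 4OI, those with Tat were lower than those without (-0.22, limma adjusted p = 0.0203), with overlapping libraries and a call lost in 6 of 16 alternatives. Amlexanox alone gave 140, 149 and 143 CPM, above every Control library (0.19, limma adjusted p = 0.0297), and this call was lost without Control library 2 or 3, without Amlexanox library 2 or 3 and in the fit to the 2 groups alone. Suclg1 was also higher with 4OI than with Tazemetostat, by 0.18 with Tat (adjusted p = 0.0368, lost in 6 of 15 alternatives) and by 0.22 with Tat-Cocaine (adjusted p = 0.00744, lost in 2 of 15). Over 48 libraries Suclg1 was most like Abhd1 (r = 0.817), Cct8 (0.794), a subunit of the chaperonin of the cytosol, and Slc7a11 (0.776), the cystine importer.

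Suclg2, the beta subunit of the GTP-forming enzyme, was lower with Tat. In Control it stood at 174, 167 and 205 CPM, in Tat at 127, 128 and 105 CPM and in Tat-Cocaine at 103, 91.4 and 122 CPM. Neither group with Tat overlapped Control. The log2 difference was -0.60 for Tat (SE 0.16, 95% interval -0.94 to -0.27, limma adjusted p = 0.0072) and -0.79 for Tat-Cocaine (95% interval -1.12 to -0.46, adjusted p = 0.000884), or 1.52-fold and 1.73-fold lower. Both calls held in all 16 alternatives. With Tazemetostat present Tat also lowered it, from 126, 168 and 166 to 105, 104 and 97.8 CPM (-0.57, limma adjusted p = 0.0149), a call lost in 4 of 15 alternatives. With 4OI present the difference was -0.49 without overlap (limma adjusted p = 0.0732) and with Senicapoc present -0.44 with overlap (adjusted p = 0.0631). Neither was called in the fit to all libraries. The first was called in the fit to the 2 groups alone (limma adjusted p = 0.00989) and in the fit to 21 libraries (0.0302). The second was called after median ratio scaling (limma adjusted p = 0.0439), after quantile normalization (0.0352) and without Senicapoc library 2 (0.00563). With Amlexanox present Suclg2 was 114 CPM without and 122 CPM with Tat (0.15, 95% interval -0.18 to 0.48, adjusted p = 0.468). Cocaine alone gave 180, 208 and 160 CPM, which overlapped Control (0.00, 95% interval -0.33 to 0.33).

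Amlexanox alone also lowered Suclg2, to 145, 123 and 74.4 CPM (-0.72, SE 0.16, limma adjusted p = 0.00457), with Amlexanox library 3 the lowest of the 48. Without that library the difference was -0.44 (adjusted p = 0.145), without Control library 3 it was -0.63 (adjusted p = 0.0532), and in the fit to the 2 groups alone the adjusted p was 0.266. Astrocyte markers moved with Suclg2. Their summed level was 10452 to 12477 CPM in Control, 7017 to 9392 CPM in Tat and 5787 to 13606 CPM in Amlexanox. Against Control 4 of 8 were lower in Tat, 3 of 8 in Tat-Cocaine and 5 of 8 in Amlexanox, with 0 higher. These comparisons called 21.3%, 14.9% and 11.4% of all genes. None of the 8 markers was at 0 in any library. The genes most like Suclg2 over the 48 libraries were the astrocyte genes Gja1 (r = 0.938, within groups 0.841), Synm (0.934) and S100b (0.927), of which Gja1 and S100b are also in that marker list. The part of the astrocyte markers in the Suclg2 differences was not tested.

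**Figure D4:**
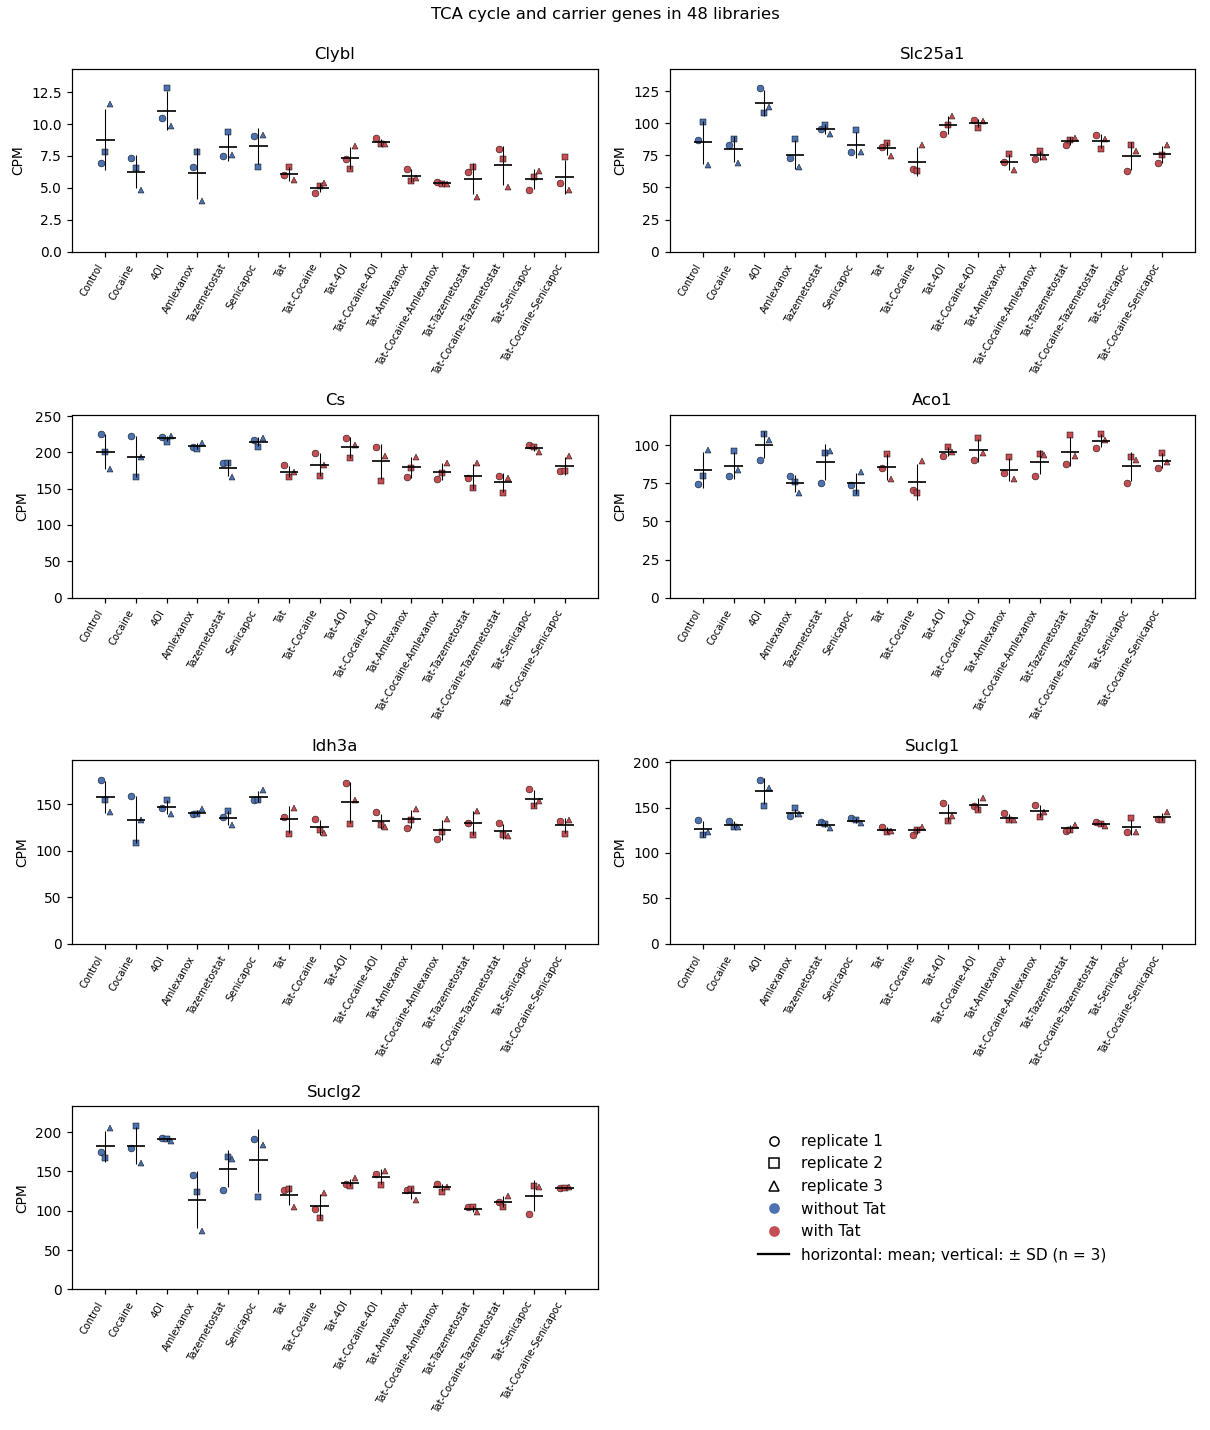
CPM (y axes, from 0) of 7 genes in 16 groups (x axes), 1 point per library, with circles, squares and triangles for libraries 1, 2 and 3, blue for groups without Tat and red for groups with Tat. Horizontal bars are means and vertical lines ± SD (n = 3). The 4OI group has the highest mean of Clybl, Slc25a1, Cs, Suclg1 and Suclg2, and Suclg2 is lower in Tat than in Control.

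The highest group mean over the 16 groups was that of 4OI for 5 of the 7 genes other than Acod1, at 11 CPM for Clybl, 116 for Slc25a1, 219 for Cs, 168 for Suclg1 and 191 for Suclg2. Of these, Slc25a1 and Suclg1 were called against Control. For Idh3a the highest mean was that of Senicapoc (158 CPM) and for Aco1 that of Tat-Cocaine-Tazemetostat (103 CPM). In the order of group means, all 15 neighbouring pairs overlapped for Clybl, Cs, Aco1, Idh3a and Suclg1, 13 of 15 for Slc25a1 and 14 of 15 for Suclg2.

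Genes around the cycle were taken from lists written with earlier results of these data known. Beside their counts stand the shares of all genes called, which were 21.3% with Tat (2318 genes higher and 1064 lower), 14.9% with Tat-Cocaine, 3.15% with 4OI, 15.6% with 4OI added to Tat and 7.36% with 4OI added to Tat-Cocaine. Of 24 other enzymes of the cycle and its entry, 6 were lower with Tat and 0 higher. The share called in either direction was near that of all genes. Of the 15890 genes tested, 1064 were lower and 2318 higher. The median log2 difference of the 24 was -0.22, against 0.01 over all genes tested. That median over all genes lay between -0.01 and 0.01 in each comparison that follows. Among the 6 lower enzymes were Pdhb and Pdha1 of pyruvate dehydrogenase (-0.39 and -0.36). With 4OI alone 4 of 24 were higher and 0 lower (median 0.05). They included Me1, the cytosolic malic enzyme, at 453, 284 and 456 CPM against 159, 135 and 158 CPM in Control (1.36, limma adjusted p = 3.05e-06), Pc (pyruvate carboxylase, 0.65) and Idh1 (0.55). Added to Tat, 4OI raised 4 of 24, led by Me1 (1.11), Pc (0.82) and Idh1 (0.74), and lowered Idh2 (-0.45). Added to Tat-Cocaine it raised 4 of 24 and lowered 0, led by Me1 (1.06), Idh1 (0.66) and Pc (0.65). In Tat-Cocaine against Control 5 of 24 were lower and 0 higher.

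Of 10 tested genes that use citrate in the cytosol for fatty acid and sterol synthesis, 3 were lower with Tat (21.3% of all genes called) and 0 higher, namely Acacb (-0.89), Hmgcs1 (-0.66) and Fasn (-0.46). The median was -0.23 on the log2 scale. With 4OI alone (3.15% of all genes called) 2 of 10 were higher and 0 lower (median 0.46), Hmgcs1, which makes the precursor of mevalonate (699, 559 and 700 CPM against 352, 401 and 313 CPM in Control, log2 difference 0.88, limma adjusted p = 0.000515), and Sqle (0.45). Added to Tat, 4OI raised 3 of 10 (15.6% of all genes called) and lowered 0, among them Hmgcs1 at 1.04 and Fasn at 0.54, and added to Tat-Cocaine it raised 2 of 10 (7.36%), Hmgcs1 (0.88) and Sqle (0.44).

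Iron regulation is the system in which Aco1 serves as a sensor. Of its 5 tested genes, 1 was higher and 1 lower with Tat (21.3% of all genes called). Slc11a2, the iron importer, was 218, 220 and 161 CPM in Tat and 73.1, 87.4 and 89.0 CPM in Control (1.25, limma adjusted p = 1.97e-05), without overlap. Tfrc, the transferrin receptor, was lower with Tat (-1.15, limma adjusted p = 0.00364), although Tat library 3 (186 CPM) lay above Control library 3 (183 CPM). With 4OI alone Fth1 (ferritin heavy chain) was higher (6573, 9732 and 7510 CPM against 3139, 3967 and 3504 CPM in Control, log2 difference 1.15, limma adjusted p = 1.36e-05), as was Ftl1 (1.09). Ftl1 had only 0.33 to 1.77 CPM in all libraries, and ferritin genes have near-identical copies, so that its values are uncertain. Added to Tat, 4OI raised 4 of 5 (15.6% of all genes called), led by Fth1 (1.048), Tfrc (1.03) and Ftl1 (0.62). It lowered Slc11a2 (-0.81, limma adjusted p = 0.005). Added to Tat-Cocaine it raised 2 of 5 (7.36% of all genes called), Fth1 (1.35) and Ftl1 (0.68), and lowered 0.

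Of 6 tested genes that move itaconate or carry out neighbouring reactions, 2 were higher with Tat, where 21.3% of all genes were called. They were Slc25a10, the mitochondrial dicarboxylate carrier (0.71, limma adjusted p = 0.000805), and Abcg2, an export pump for itaconate (0.62, limma adjusted p = 0.045), at 0.756 to 1.70 CPM in Tat and 0.383 to 0.908 CPM in Control, with overlap. With 4OI added to Tat, Slc25a10 was lower (-0.57) and Mmut higher (0.26). Auh, which acts just before Clybl in the breakdown of itaconate, did not pass in these comparisons. Oxgr1, a receptor for itaconate, was at 0.0403 CPM in Tat-Cocaine library 3 and at 0 in the other libraries, and was not tested.

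Of 16 tested inducers and partners of Acod1 in activated macrophages, 10 rose with Tat and 0 fell (median 1.18). That comparison called 21.3% of all genes. The differences were largest for Ccl5 (5.24), Il1b (3.96) and Irf7 (3.59), and Il1b was 98.4, 108 and 37 CPM in Tat against 2.38, 5.93 and 5.27 CPM in Control. In Tat-Cocaine 6 of 16 were higher and 0 lower (14.9% of all genes called), led by Ccl5 (5.04), Irf7 (3.38) and Il1b (3.13). Added to Tat, 4OI lowered 11 of 16 and raised 0 (median -1.30, 15.6% of all genes called). Il1b (-2.25), Irf7 (-2.13) and Ccl5 (-1.99) led them. Added to Tat-Cocaine, 4OI lowered 2 of 16 (7.36% of all genes called), Ccl5 (-2.15) and Irf7 (-2.09). Alone it lowered 2 of 16 (3.15% of all genes called), among them Irf7 (-2.16). Nfkbia, the inhibitor and a target of NF-κB, was among those higher with Tat (408 against 81.2 CPM, 2.41), beside the NF-κB letters upstream of Acod1, whose use was not tested. The summed microglia markers given above moved in the same comparisons.

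**Figure D5:**
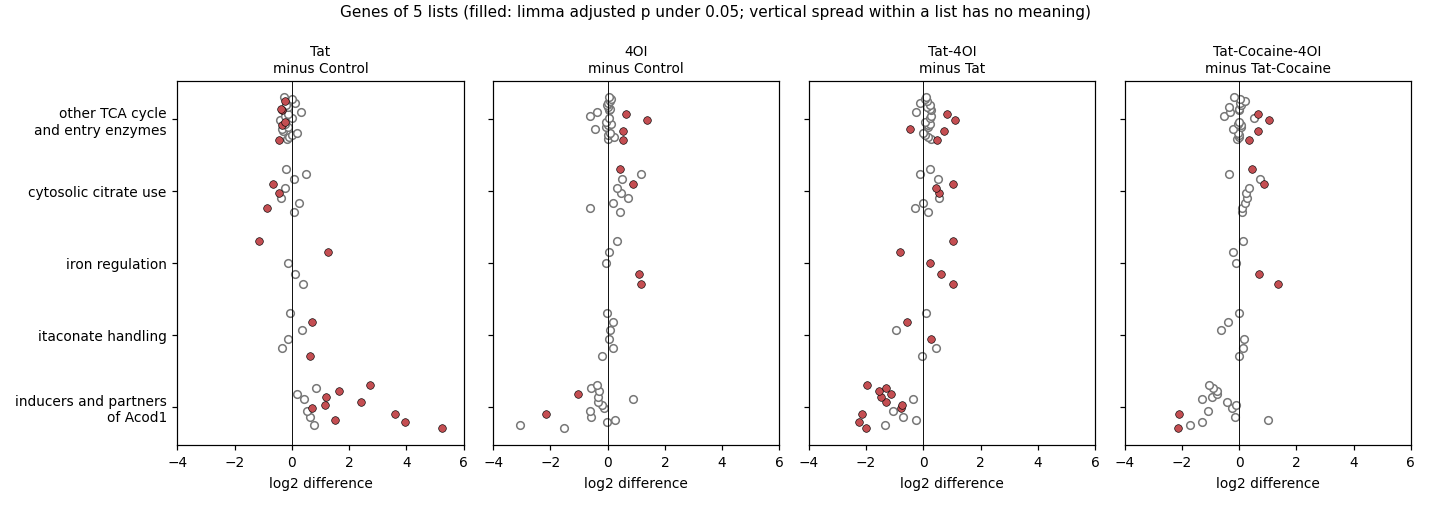
Log2 difference on log2(CPM + 0.5) (x axis) of each tested gene of 5 lists (rows) in 4 comparisons (panels), filled where limma's adjusted p was under 0.05. Height within a row separates points and has no meaning. Filled points of the inducers and partners lie to the right with Tat (10 of 16). They lie to the left when 4OI is added to Tat (11 of 16). Filled points of the cycle enzymes lie to the left with Tat (6 of 24), near the share of all genes. These comparisons called 21.3% (Tat) and 15.6% (4OI added to Tat) of all genes.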

How the data were processed

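Total RNA from 48 cultures (16 groups of 3, grouped by the labels' treatment) was sequenced as polyA RNA. Per the labels and the study's methods, the authors trimmed reads with Trim Galore 0.4.5, aligned them with STAR 2.7.2 and counted genes with featureCounts of Subread 1.5.3. The labels list the builds mRatBN7.2 and hg38 and the methods an older rat build, so no file coordinates are given. The deposited values are a normalized signal, TMM-scaled CPM, whose columns summed to 930399 to 1046890. Only 84.3% to 87.3% of positive values came out as whole reads within 0.02 read, so no count model was used. The table's 16 columns of group means and 36 columns of the authors' fold changes and p-values were not used.

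Values were analysed as log2(CPM + 0.5) with limma 3.58.1 (R 4.3.3), with 1 mean per group, no covariates and a mean-variance trend, over the 15890 genes that reached 0.5 CPM in 3 or more libraries, with Benjamini-Hochberg adjustment within each comparison. The fit was tested on simulated data. The members and the gene lists were chosen with earlier results of these data known. Up to 3 called genes per direction were named from each list, and the genes most like each member by Pearson correlation, 8 for Acod1 and 3 for the others. Some genes of the lists that the rule would name are not reported here. Alternatives covered the pseudocount, the filter, 2 scalings, the trend, the libraries fitted, a replicate block and leaving out single libraries. Same-numbered libraries deviated together (every r above 0.1) in 8 of 26 comparisons, in which the blocked value is printed beside any call it changes. Upstream sequences are from RefSeq (GRCr8).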

Additional observations from a re-analysis of the deposited data

How the results depend on the processing

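Of the 32 calls of a gene in a comparison, 23 were lost under at least 1 alternative and 0 reversed. The fit to 21 libraries and the fits without 1 library were not checked for shifts of the median of all genes. Under the other alternatives that median moved by no more than 0.1 on the log2 scale. The cause of the shifts was not tested. With 3 libraries per group, depth limits Acod1 most in the groups without Tat, where it stood on a few reads. Below, the number of the 8 genes called is given for each alternative that moved it by over 1.5 times. A pseudocount of 0.1 gave 2 for Tat-4OI against 4OI and 2 for Tat-4OI against Tat-Senicapoc, no filter gave 1 for Tat-Cocaine-4OI against Tat-Cocaine-Amlexanox, and a minimum of 2 CPM gave 2 for Tat-4OI against Tat-Senicapoc. Median ratio scaling gave 2 for Tat-Amlexanox against Amlexanox and 2 for Tat-Senicapoc against Senicapoc, and quantile normalization gave 1 for 4OI, 3 for Tat-Senicapoc against Senicapoc and 2 for Tat-Cocaine-4OI against Tat-Cocaine-Senicapoc. In fits to the compared groups alone 1 gene was called for Tat-Cocaine against Control, for 4OI added to Tat, for Tazemetostat added to Tat-Cocaine, for Tat-Tazemetostat against Tazemetostat and for Tat-4OI against Tat-Tazemetostat, and 0 for 4OI, for 4OI added to Tat-Cocaine, for Amlexanox and for Tat-4OI against Tat-Senicapoc. The fit to 21 libraries gave 1 for 4OI and 1 for 4OI added to Tat.

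The replicate block (pairing libraries by number) gave 1 called gene for Amlexanox added to Tat-Cocaine, 2 for Tat-Amlexanox against Amlexanox, 1 for the interaction of 4OI with Tat (Acod1, adjusted p = 0.0468), 2 for Tat-4OI against Tat-Amlexanox (Acod1 gained, adjusted p = 0.0147), 2 for Tat-4OI against Tat-Senicapoc (Acod1 gained, adjusted p = 0.00868) and 2 for Tat-Cocaine-4OI against Tat-Cocaine-Senicapoc. Where the numbers paired the libraries, it changed no call other than those given with the results. In the other comparisons of 2 groups at least 1 same-numbered pair had a correlation of 0.1 or less, so that pairing was not shown, although 95 of 120 pairs of groups had a positive mean correlation of same-numbered libraries (median 0.18). The 4 interactions were not checked for pairing.

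Leaving out 1 library moved the number of genes called to 0 to 1 for Cocaine, 2 to 4 for Tat-Cocaine against Control, 1 to 2 for 4OI, 1 to 3 for 4OI added to Tat, 1 to 4 for 4OI added to Tat-Cocaine, 0 to 3 for Amlexanox, 0 to 1 for Amlexanox added to Tat-Cocaine, 0 to 1 for the Amlexanox interaction (Suclg2 without Amlexanox library 1, 0.95, adjusted p = 0.00967) and 0 to 3 for Tazemetostat added to Tat-Cocaine. For Tat in the presence of a molecule it gave 0 to 1 (4OI), 1 to 2 (Amlexanox), 1 to 2 (Tazemetostat) and 1 to 3 (Senicapoc). For 4OI against another molecule with Tat it gave 1 to 2 (Amlexanox), 0 to 4 (Tazemetostat) and 0 to 2 (Senicapoc), and with Tat-Cocaine 0 to 1, 1 to 3 and 0 to 2.

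Uncalled differences of Acod1 changed sign in 5 comparisons when 1 library was left out. They ran from -0.16 to 0.35 for Cocaine, from -1.47 to 0.23 for Tazemetostat added to Tat, from -1.12 to 0.59 for the Tazemetostat interaction (0.28 with a pseudocount of 0.1), from -0.92 to 0.96 for Amlexanox added to Tat-Cocaine and from -0.085 to 1.80 for Senicapoc added to Tat-Cocaine.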
